A study of Mus musculus with 2 samples.

Results

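Binding of MAFK was examined around 10 genes that encode factors of naive pluripotency, namely Tfcp2l1, Klf2, Klf4, Klf5, Tbx3, Nr5a2, Prdm14, Zfp42, Nanog and Dppa3. MAFK had been mapped by ChIP-seq, in which antibody-bound chromatin is sequenced, in ES-E14, an embryonic stem cell line from a male embryo of strain 129/Ola. There were 2 biological replicates of 1 condition, for which no treatment or genotype is named. Both carry the same biosample entry, so the spread between them may be technical. With 1 condition there was no contrast to test, and every comparison here is a description. The 10 genes are among 21938 protein-coding genes of the annotation on the assembled chromosomes. A region was assigned to a gene where its summit lay within 50 kb of any of the gene's transcription start sites (TSSs). By that rule 24 of the 16865 regions in the authors' optimal list were assigned, each to 1 gene. These 24 regions formed 22 separate stretches, because a pair of regions near Tbx3 and a pair near Nanog overlapped each other. The farthest assigned summit lay 46861 bp from Zfp42 (signal value 21.8), and the nearest one outside lay 50648 bp from Klf4 (26.2).

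Naive pluripotency is the state of the early epiblast and of mouse embryonic stem cells grown with leukaemia inhibitory factor. It is held by a network of transcription factors that sustain each other's genes, and these genes are switched off when cells move toward differentiation. MAFK belongs to the small MAF proteins, which bind DNA through a basic leucine zipper but have no activation domain of their own. Where MAFK pairs with a factor of the CNC or BACH families, that partner decides whether a bound gene is activated or repressed. A binding region near a gene does not show that the gene is controlled from it, and the files hold no expression values. The labelled cell type therefore could not be checked against its markers.

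The sequence at the strongest region of each gene shows whether a MAF-type site lies within 50 bases of that summit. It does not speak for the other regions of a gene, which at Nanog and Klf5 held elements that the strongest region lacked. Each line gives the summit base and 50 bases to either side, on the forward strand of GRCm38, the assembly of mm10. Capitals mark the antioxidant response element core, spelled TGACNNNGC or TGAGNNNGC, and the MAF core TGCTGA, both searched on either strand. These elements can share bases. Lines without capitals hold neither.
Tfcp2l1, chr1:118621204-118621304: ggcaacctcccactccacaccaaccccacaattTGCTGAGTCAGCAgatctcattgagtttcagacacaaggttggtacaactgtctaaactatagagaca
Zfp42, chr8:43261110-43261210: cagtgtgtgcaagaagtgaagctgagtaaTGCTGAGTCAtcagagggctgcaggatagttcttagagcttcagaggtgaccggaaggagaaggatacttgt
Tbx3, chr5:119710338-119710438: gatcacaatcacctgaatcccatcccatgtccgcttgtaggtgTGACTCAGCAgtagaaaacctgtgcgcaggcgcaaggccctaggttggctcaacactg
Klf2, chr8:72311044-72311144: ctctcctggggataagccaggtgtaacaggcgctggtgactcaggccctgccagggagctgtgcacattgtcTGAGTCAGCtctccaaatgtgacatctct
Prdm14, chr1:13081866-13081966: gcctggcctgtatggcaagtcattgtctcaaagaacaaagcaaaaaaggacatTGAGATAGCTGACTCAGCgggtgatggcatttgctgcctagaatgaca
Klf5, chr14:99265950-99266050: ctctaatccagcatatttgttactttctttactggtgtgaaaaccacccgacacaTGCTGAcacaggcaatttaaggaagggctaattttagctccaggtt
Dppa3, chr6:122608715-122608815: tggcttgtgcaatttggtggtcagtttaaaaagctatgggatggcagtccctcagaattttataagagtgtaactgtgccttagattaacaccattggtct
Nanog, chr6:122740111-122740211: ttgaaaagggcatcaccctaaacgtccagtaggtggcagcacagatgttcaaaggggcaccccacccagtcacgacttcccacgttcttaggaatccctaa
The order is that of the signal value, and the 3 strongest of these regions, at Tfcp2l1, Zfp42 and Tbx3, held both elements. The regions of Klf2 and Prdm14 held the antioxidant response element core, that of Klf5 the MAF core, and those of Dppa3 and Nanog neither. Klf4 and Nr5a2 had no assigned region.

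Regions were found near 8 of the 10 genes, while 59.3% of all protein-coding genes had an optimal summit within 50 kb. Within 10 kb the count was 6 of 10, against 26.9% of protein-coding genes. Klf5 and Tbx3 had 5 regions each, Zfp42 had 4, Nanog 3, Tfcp2l1, Klf2 and Dppa3 2 each, and Prdm14 had 1. Of all protein-coding genes, 3.85% had 5 or more regions and 40.7% had none. The genes had between 1 and 6 annotated TSSs, with a median of 2.5 against 3 over all protein-coding genes. The signal value is a score of the authors with no stated scale, used here to rank regions. Its median over the 24 regions was 22.9, and over the whole optimal list it was 27.9. The median percentile of the 24 regions within the list was 37.7, and they ranged from 0.581 to 99.0. Percentiles below 50 were found for 15 of the 24 regions, and 3 regions had a signal value above 100.

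**Figure D1:**
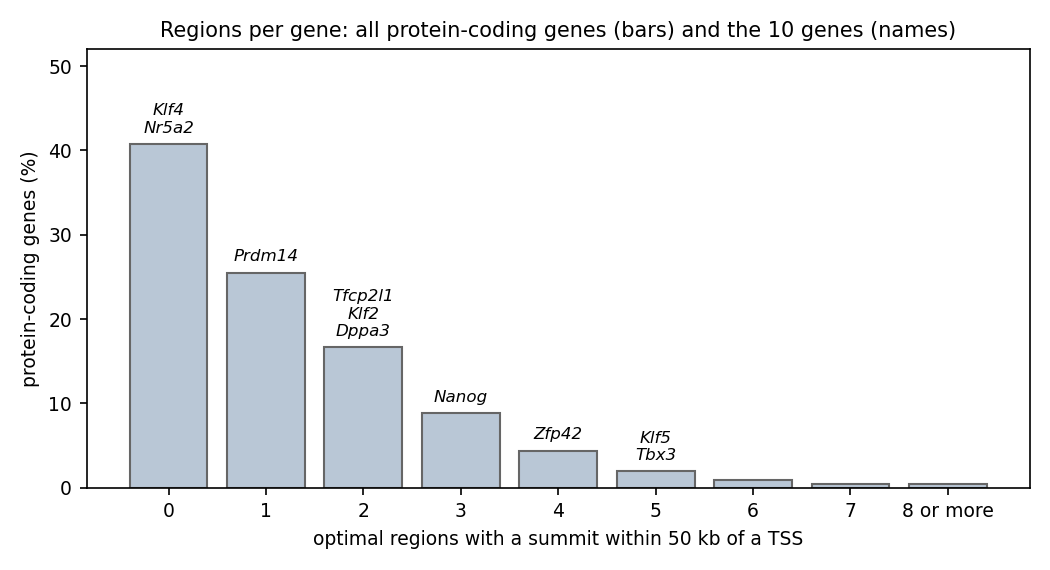
Bars give the percentage of the 21938 protein-coding genes (vertical axis) by the number of optimal regions within 50 kb of a TSS (horizontal axis), and names mark the 10 genes. Klf4 and Nr5a2 stand with the 40.7% of genes that had none, and Klf5 and Tbx3 with the few that had 5.

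Support from the single replicates was uneven. The authors' thresholded list of replicate 1 had a summit within 50 kb of 5 of the 10 genes (37.6% of protein-coding genes), and that of replicate 2 near 6 (44.7%). Regions that overlapped both replicates' lists by at least 1 bp lay near 4 genes, Tfcp2l1, Klf2, Tbx3 and Zfp42, against 32.1% of protein-coding genes. Of the 24 regions, 6 overlapped both lists, 10 overlapped 1 list and 8 overlapped neither. The 10 were 41.7% of the regions and the 8 were 33.3%, against 26.5% and 38.1% of all optimal regions on assembled chromosomes. The overlapping pair near Tbx3, in the list of replicate 1 only, was counted as separate regions among the 10. The overlapping pair near Nanog was counted so among the 8. The 6 were 25% of the regions (95% Wilson interval 12.0 to 44.9), and 35.4% of all optimal regions on assembled chromosomes overlapped both. The interval covers counting error only, and regions near 1 gene are not independent. The 6 had signal values from 35.7 to 252.9, and the other 18 from 4.88 to 31.6, so these ranges did not overlap. Among all optimal regions on assembled chromosomes such ranges did overlap. There, regions in both lists went down to 4.05, and the other regions reached 105.1. The pooled value and the replicates' lists come from the same libraries.

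**Figure D2:**
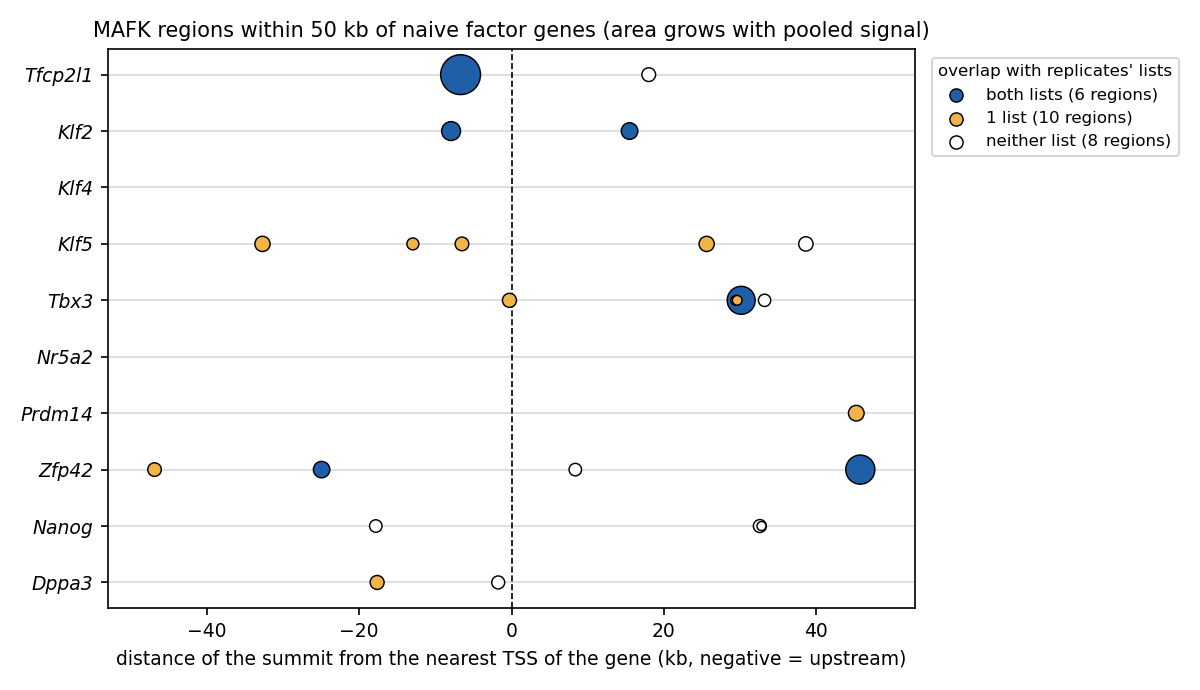
Each circle is 1 of the 24 regions, placed by the distance of its summit from the nearest TSS of the gene (kb, negative upstream), with an area that grows with the pooled signal value and a colour for overlap with the replicates' lists. The 3 large circles are at Tfcp2l1 (252.9), Zfp42 (130.9) and Tbx3 (120.3), and all circles of Nanog are open.

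Tfcp2l1 had the strongest region. It encodes a grainyhead-like factor downstream of leukaemia inhibitory factor and STAT3, and lies on chromosome 1, 118627945 to 118685168, plus strand. The region at chromosome 1, 118621117 to 118621390, was intergenic, with its summit 6691 bp upstream of the TSS. In the relaxed lists, which keep weak regions and background, it had a signal value of 133.6 in replicate 1 and 119.3 in replicate 2, and in the pooled optimal list of 252.9. It was rank 172 of the optimal list, and its percentile was 99.0 in replicate 1 and 98.8 in replicate 2, so both replicates placed it near the top. Among protein-coding genes with any region within 50 kb, 97.9% had a weaker strongest region. In the printed Tfcp2l1 sequence the capitals hold a MAF core on each strand, with 1 base between them. A second region, in an intron of Tfcp2l1 18006 bp from the TSS, had signal values of 13.5 and 8.06 in replicates 1 and 2 and overlapped neither thresholded list.

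The KLF genes differed from each other. Klf2, Klf4 and Klf5 encode zinc finger factors that can stand in for each other in embryonic stem cells. Klf2 (chromosome 8, 72319033 to 72321656, plus strand) had 2 regions, and both overlapped both replicates' lists. The stronger, at chromosome 8, 72310946 to 72311241, had signal values of 20.7 in replicate 1, 30.3 in replicate 2 and 50.3 pooled. Its summit lay 7939 bp upstream of Klf2 and 5834 bp from the TSS of another protein-coding gene model, Gm10282. The other, at chromosome 8, 72334372 to 72334667, lay 15487 bp downstream of the TSS, with 17.1 in replicate 1, 16.0 in replicate 2 and 36.8 pooled. It held none of the elements searched within 50 bp of its summit.

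Klf5 (chromosome 14, 99298691 to 99315036, plus strand) had 5 regions spread over both sides of the gene, of which 2 were just above and 3 below the median signal value of the optimal list. Their pooled signal values were 22.2 at 6511 bp, 14.9 at 12954 bp and 29.6 at 32691 bp upstream, and 29.5 at 25608 bp and 25.2 at 38630 bp downstream. None of these regions overlapped the list of replicate 1, and 4 overlapped the list of replicate 2. In the relaxed lists 4 of them had values from 13.02 to 15.2 in replicate 1, the fifth had no region there, and the range in replicate 2 was 9.78 to 16.9. The region at 6511 bp was 544 bp from the start of a processed pseudogene, Gm4412, and all 5 had Klf5 as the nearest protein-coding gene.

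Klf4 and Nr5a2 had no optimal region within 50 kb. Klf4 lies on chromosome 4, 55527143 to 55532466, minus strand. The strongest of the 14 pooled relaxed regions within 50 kb of it had a signal value of 11.4, at 49658 bp, with 10.01 in replicate 1 and no relaxed region at that place in replicate 2. Nr5a2, an orphan nuclear receptor gene on chromosome 1, 136842571 to 136960448, minus strand, had 25 pooled relaxed regions within 50 kb. The strongest was 490 bp from a TSS, with 7.68 pooled, 2.44 in replicate 1 and 4.54 in replicate 2, at rank 51242 of the pooled relaxed list. The nearest optimal summit to Nr5a2 was 111861 bp away.

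Tbx3 had the third strongest region, inside a group of regions on its downstream side. Tbx3 encodes a T-box factor and lies on chromosome 5, 119670669 to 119684724, plus strand. The region at chromosome 5, 119710304 to 119710492, had its summit 30139 bp from a TSS and signal values of 45.3 in replicate 1, 72.6 in replicate 2 and 120.3 pooled. Its percentile was 89.3 in replicate 1 and 95.7 in replicate 2. On its near side lay the overlapping pair at 29403 and 29617 bp, with 6.85 and 6.80 pooled and 4.22 and 4.03 in the replicates, and beyond it a region at 33208 bp (16.3 pooled, 4.26 and 10.5 in replicates 1 and 2). The fifth region, at chromosome 5, 119679825 to 119680120, was inside Tbx3, 276 bp from the start of a shorter transcript of the gene. It had 13.7 in replicate 1, 9.27 in replicate 2 and 23.7 pooled, and overlapped the list of replicate 1 only.

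Zfp42, known as Rex1 and a common marker of the naive state, had 4 regions of very unequal strength. The gene lies on chromosome 8, 43295063 to 43306980, minus strand. The strongest region, at chromosome 8, 43261038 to 43261252, was intergenic and 45776 bp downstream of the TSS, with signal values of 62.1 in replicate 1, 70.2 in replicate 2 and 130.9 pooled. Its percentile was 93.8 in replicate 1 and 95.4 in replicate 2. A region 24932 bp upstream had 18.7 and 18.3 in replicates 1 and 2 and also overlapped both lists. The other regions were in an intron at 8367 bp (17.1 pooled, 9.03 and 6.18 in replicates 1 and 2) and 46861 bp upstream (21.8 pooled, 7.69 and 12.7). The gene was the nearest protein-coding gene to all 4 of its regions.

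Prdm14 had 1 region at the edge of the window. Prdm14 encodes a PR-domain factor that restrains FGF signalling and DNA methylation in embryonic stem cells, and lies on chromosome 1, 13113457 to 13127163, minus strand. The region at chromosome 1, 13081768 to 13082063, was 45247 bp downstream of the TSS. It had 9.29 in replicate 1, 21.4 in replicate 2 and 31.6 pooled, a ratio of replicate 2 to replicate 1 of 2.30. The median of that ratio over all optimal regions with a relaxed region in both replicates was 1.06. The region overlapped the list of replicate 2 only.

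Nanog and Dppa3, neighbours on chromosome 6, had weak regions only. Nanog, the homeodomain factor gene at 122707489 to 122714633, plus strand, had a region 17820 bp upstream (7.19 in replicate 1, 6.75 in replicate 2, 17.0 pooled). Its overlapping pair at 32593 and 32804 bp downstream lay in an intron of Slc2a3, a glucose transporter gene whose TSS was 2101 and 1890 bp away, with 19.1 and 4.88 pooled and the same relaxed regions of 11.2 and 8.58 in replicates 1 and 2. None of the 3 regions of Nanog overlapped either replicate's list. Among protein-coding genes with a region within 50 kb, 12.0% had a weaker strongest region than Nanog. Dppa3 encodes a maternal factor that protects DNA methylation patterns in the early embryo and lies at 122626410 to 122630272, plus strand. It had a region 1755 bp upstream (11.6 and 8.06 in replicates 1 and 2, 19.1 pooled) and one 17645 bp upstream (14.8, 6.96 and 23.5) in an intron of Gdf3, a TGF-beta family gene with its TSS 1059 bp from the summit. The second overlapped the list of replicate 1 only.

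**Figure D3:**
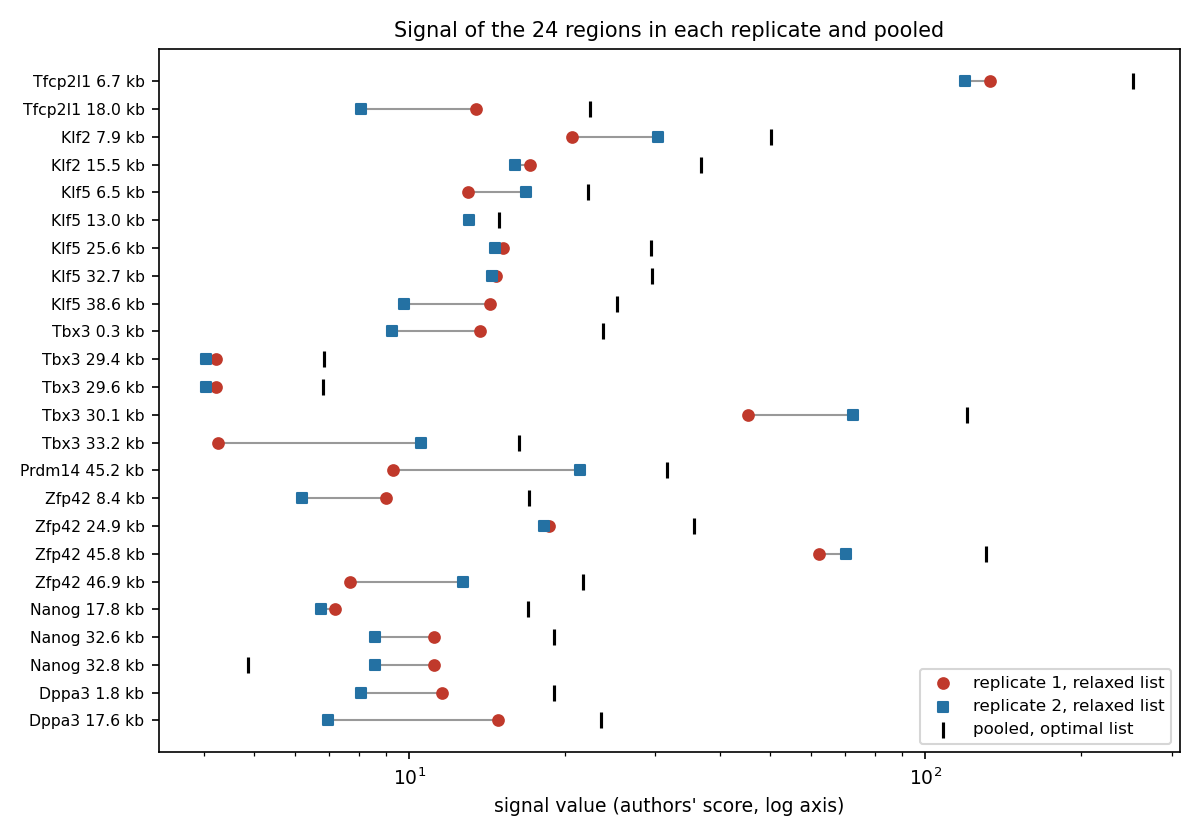
The signal value (log axis) of each of the 24 regions is shown for the relaxed lists of replicate 1 (circles) and replicate 2 (squares), joined by a line, and for the pooled optimal list (vertical ticks). The regions near Tfcp2l1, Zfp42 and Tbx3 with 45.3 or more in both replicates stand apart from the others, and the Klf5 region 12954 bp from its TSS has no relaxed region in replicate 1.

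The replicates ranked the regions alike in broad terms. Over the 23 regions with a relaxed region in both, Spearman's rho between the replicates was 0.74, and over all 16500 such optimal regions it was 0.69. These points share 2 libraries, and the optimal list was drawn from both, so the values are a description. In the overlapping pair near Tbx3 both regions have the same relaxed values, and so do those of the pair near Nanog. Such values are counted more than once in the 23. The ratio of replicate 2 to replicate 1 ran from 0.469 at the Gdf3 intron region of Dppa3 to 2.47 at the Tbx3 region 33208 bp away, with a median of 0.955.

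At the starts of the 10 genes, optimal regions were about as rare as at protein-coding genes in general. A summit lay within 1 kb of a TSS at 1 of the 10, Tbx3, where it was the shorter transcript, and at 8.66% of protein-coding genes. In the relaxed list of replicate 1 a summit lay that close at 9 genes (59.3% of protein-coding genes) and in that of replicate 2 at 9 genes as well (61.9%). Zfp42 was missing from the second and Nanog from the first. The RefSeq promoter table for GRCm38.p6 matched 6 of the genes, Tfcp2l1, Nr5a2, Klf4, Nanog, Zfp42 and Klf2. None of their 8 promoter windows, from 250 bases before to 50 after the start, held the MAF core, which was in 19.5% of all 32851 promoters. The antioxidant response element core was in that of Tfcp2l1 and in 27.8% of all. The KLF-type sequence GGGNGTGG was in a promoter of 4 of the 6 genes, Nanog, Nr5a2, Tfcp2l1 and Zfp42, and in 17.6% of all promoters. Nanog and Nr5a2 had 2 windows each, so the count of genes and the share of promoters are not on the same base.

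Regions near these genes lay mostly between genes. Of the 24, 17 were intergenic (70.8%, interval 50.8 to 85.1), 5 were in introns, 2 were within 1 kb of a TSS of any kind and none was in an exon. Of all optimal regions within 50 kb of a protein-coding TSS, 30.2% were intergenic and 45.2% intronic. Upstream regions numbered 10, downstream regions 11, and 3 lay inside the gene. The assigned gene was the nearest protein-coding gene for 20 of the 24 regions, and the exceptions were the upstream region of Klf2, the pair in Slc2a3 and the region in Gdf3. The summit was in repeat-masked sequence at 4 regions (16.7%), as at 16.4% of all optimal regions, and the median GC content of the windows was 46.5% in both sets.

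Either of the antioxidant response element core and the MAF core was found at 15 of 24 regions (62.5%, interval 42.7 to 78.8), against 79.1% of all optimal regions and 76.7% of those near protein-coding genes (within 50 kb). The antioxidant response element core lay within 50 bp of the summit at 13 of 24 regions (54.2%, interval 35.1 to 72.1), against 60.3% of all optimal regions and 7.15% of windows 1000 bp to either side. The MAF core was at 10 (41.7%, interval 24.5 to 61.2), against 62.8% of all. The AP-1 element, TGACTCA or TGAGTCA, was at 12 (50%, against 37.8%), the T-MARE palindrome with at most 2 mismatches at 7 (29.2%, against 39.2%), and the NFE2-type composite element at 7 (29.2%, against 28.2%). For the MAF core alone, and for either core, the interval ended just below the share of the whole list. Both held the share at regions near protein-coding genes, which was 59.5% for the MAF core. The intervals of the antioxidant response element core, the AP-1 element, the palindrome and the composite element held the share of the whole list. The ESRRB-type sequence TCAAGGTCA, the KLF-type sequence GGGNGTGG and the SOX-OCT composite were at 0 of 24 regions, which allows shares of up to 13.8% by the same interval, and they were at 0.398%, 3.34% and 0.154% of all regions. Among the 6 regions found in the list of each replicate, the antioxidant response core was at 5, against 73.1% of all such regions.

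**Figure D4:**
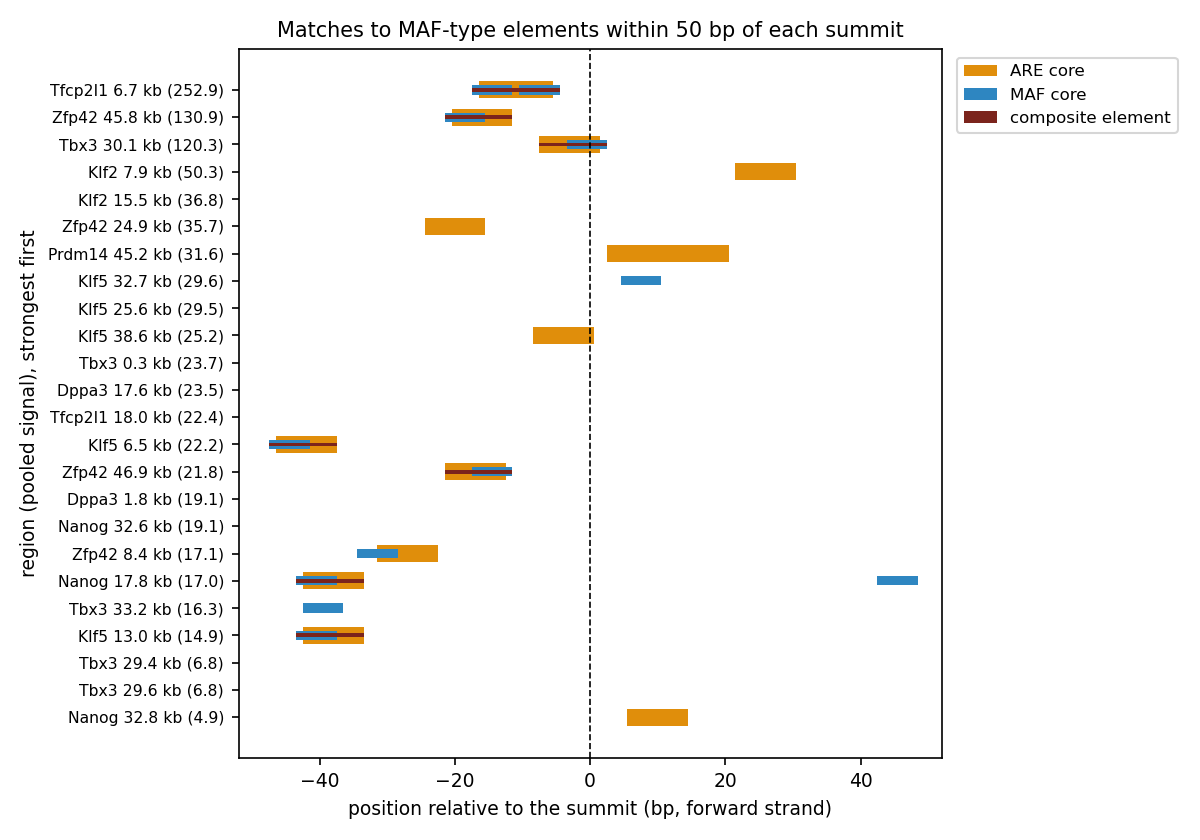
Bars mark matches to the antioxidant response element (ARE) core, the MAF core and the composite element within 50 bp of each summit (horizontal axis, bp from the summit, forward strand), with the 24 regions ordered by pooled signal value. In the 3 strongest regions the centre of the composite element lies 2.5 to 16.5 bp from the summit, and in 3 of the 4 weaker regions that hold it, 38.5 to 42.5 bp.

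The composite element, in which an AP-1 element runs directly into the GCA of a MAF site, was found at 7 regions. The site nearest the summit of each is shown with 8 bases to either side, on the strand on which the element reads forward, with the element in capitals, from the strongest region to the weakest. The Tfcp2l1 region held 2 overlapping matches, 1 on each strand, and the plus-strand match is the one shown.
Tfcp2l1, 6691 bp, chr1:118621232-118621257, plus strand: caatttgcTGAGTCAGCAgatctcat
Zfp42, 45776 bp, chr8:43261131-43261156, minus strand: ccctctgaTGACTCAGCAttactcag
Tbx3, 30139 bp, chr5:119710373-119710398, plus strand: tgtaggtgTGACTCAGCAgtagaaaa
Klf5, 6511 bp, chr14:99292125-99292150, minus strand: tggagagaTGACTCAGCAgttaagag
Zfp42, 46861 bp, chr8:43353812-43353837, plus strand: acaaagaaTGAGTCAGCActcaggtg
Nanog, 17820 bp, chr6:122689618-122689643, minus strand: tggagagaTGACTCAGCActgactgc
Klf5, 12954 bp, chr14:99285686-99285711, minus strand: atgcagtgTGACTCAGCAatgttgtg
At Tfcp2l1, Zfp42 (45776 bp) and Tbx3 the centre of the element was 9.5, 16.5 and 2.5 bp from the summit, and it lay outside repeat-masked sequence. At Klf5 (6511 bp), Nanog and Klf5 (12954 bp) it was 42.5, 38.5 and 38.5 bp away, and the signal values there were 22.2, 17.0 and 14.9. The Klf5 (12954 bp) element was also outside repeat-masked sequence, although its region was the weakest of the 7. The second Zfp42 element was as near to its summit, at 16.5 bp, as the strong one, but was repeat-masked and in a region of 21.8. Whether place or masking bears on strength was not tested. Over the whole list the median signal value was 32.1 where the composite element was repeat-masked and 40.8 where it was not. Over all 4754 optimal regions with a composite element, 88.3% had it centred within 25 bp, with a median signal value of 40.5 against 25.6 for the rest.

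The elements of Klf5 (6511 bp) and Nanog shared the same 18 bases up to the end of the element, and both were repeat-masked. The same 18 bases were found at 282 optimal regions, 5.93% of those with a composite element, and the element in them was repeat-masked at all 282. Those regions had a median signal value of 31.6, against 38.5 for the other regions with a composite element. The 18 bases at Tfcp2l1, Tbx3, Zfp42 (45776 bp) and Klf5 (12954 bp) were found at no other optimal region, and those of the second Zfp42 region, which was also repeat-masked, at 4 in all. The identical sites were noticed after the sequences had been read out. The reference used here marks repeats without naming their family.

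Other gene lists linked to pluripotency were counted in the same way, beside the 8 and 4 of the 10 naive factor genes and the 59.3% and 32.1% of all protein-coding genes. Among 20 genes for signalling inputs and partners of the naive network, 16 had an optimal summit within 50 kb and 10 one that overlapped both replicates' lists, led by Esrrb (signal value 509.4 at 16167 bp) and Socs3 (99.5 at 5940 bp). Among 16 genes of the formative and primed states these counts were 11 and 10, led by Zic2 (163.3 at 41209 bp) and Dnmt3b (156.2 at 26874 bp). The other 14 KLF genes gave 8 and 5, led by Klf1 (254.3 at 12167 bp) and Klf9 (127.7 at 25800 bp). The 8 of 14 KLF genes with a region within 50 kb were close to the share of all genes. Among 12 DPPA and germline-linked genes they were 11 and 6, and the strongest region, of 79.7, was shared by the neighbours Dppa2 (210 bp) and Dppa4 (19911 bp). The median of the strongest signal value per gene was 41.0 over the 8 naive factor genes with a region, 37.9, 111.5, 66.0 and 42.7 over the lists in this order, and 40.8 over all protein-coding genes with a region.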

How the data were processed

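ChIP-seq against MAFK was analysed from the region lists deposited for 2 replicates. Read depth is unknown, because the lists hold no reads. Lists on mm10 came from 2 processing runs, as text notes deposited beside the files state. The optimal, conservative and relaxed lists are from the first, and the replicates' thresholded lists from the second, so overlaps between them cross runs. For the aligner and the peak caller, the name is not given in the sources used here. The signal value and the scaled irreproducible discovery rate value are scores that the authors deposited; the scale of the signal value is not stated, and the second score is not printed. The IDR-ranked lists were not used.

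The 10 genes and the gene lists were chosen with earlier results of these data known, and no enrichment test was run. All 10 genes were named with each of their regions, and up to 2 genes of each other list. TSSs came from GENCODE vM21, sequences from GRCm38. No listed region lay beyond a chromosome end. Location, element and repeat values used the 16836 optimal regions on assembled chromosomes. A replicate's value is that of its strongest relaxed region sharing at least 1 bp. Percentiles are shares of weaker regions. Intervals are 95% Wilson intervals. Code was tested on simulated data. Python 3.11.15, pandas 2.3.3, scipy 1.17.1 and pysam 0.24.0 were used. Alternatives varied distance, list, overlap, window, mismatches and replicate.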

Additional observations from a re-analysis of the deposited data

How the results depend on the processing

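With 1 replicate's thresholded list in place of the optimal list, 5 to 6 genes had a region within 50 kb in place of 8, and 11 to 13 regions were assigned in place of 24. The number of regions was 6 within 10 kb, 39 within 100 kb and 9 in the strongest 50% of the list. It stayed within 1.5 times in the conservative list, in the second run's list and with the gene start as the only TSS, and the number of genes did so in all 6 of these settings. For the number of genes within 100 kb, which was 9, this was fixed in advance, because it could only lie between 8 and 10. The share that overlapped both replicates' lists was 25% with cover of 50% and with summits within 100 bp. The antioxidant response element core was at 33.3% of regions within 25 bp of the summit (48.7% of all optimal regions). Within 100 bp it was at 70.8% (65.7% of all), so the order turned with the window. It was at 83.3% of the regions in both replicates' lists (73.1% of all such regions). The composite element was at 50% of the regions in both lists (41.0% of all such regions) and at 58.3% of the 24 with 1 mismatch (53.1% of all). The median percentile was 48.9 in replicate 1 and 34.9 in replicate 2. Taking the relaxed region over the summit, a choice made after seeing the data, gave 49.4 and 41.0, and a rank correlation of 0.66 over 19 regions against 0.70 over all 15890, so that the order of these values, 0.74 and 0.69 otherwise, turned. Shares of the 6 regions in both lists rest on few regions, and what depth limits cannot be stated, because depth is unknown. No paired analysis was possible because there is 1 group.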

Other observations

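Klf4 had a compact set of optimal regions just beyond the 50 kb limit. At 50648, 53961, 54165 and 56009 bp downstream of a Klf4 TSS, on chromosome 4 between 55475613 and 55481269, lay 4 regions with pooled signal values of 26.2, 7.34, 34.8 and 15.2. Klf4 was the nearest protein-coding gene to each of them. In the relaxed lists the first had 19.97 for replicate 1 and 6.90 for replicate 2, the overlapping pair at 53961 and 54165 bp shared relaxed regions of 15.8 and 19.6, and the last had 5.75 and 7.47. The first 3 overlapped the list of replicate 1 only and the last that of replicate 2 only. None held the antioxidant response element core or the composite element within 50 bp of the summit. Enhancers of Klf4 in embryonic stem cells are known on the downstream side of the gene. Overlap of the 4 regions with those enhancers was not tested.

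In all, 15 regions lay between 50 and 100 kb of one of the 10 genes and within 50 kb of none. They lay near 5 of the genes, and 4 of them overlapped both replicates' lists. Across assembled chromosomes, 35.4% of the optimal list had that overlap. How many protein-coding genes have a region at this distance was not counted. Of these 4 regions, 2 carried the composite element, 76781 and 77588 bp upstream of Prdm14, with pooled signal values of 80.4 and 60.4. Both were stronger than the one region assigned to Prdm14 (31.6), and both were closer to Ncoa2, a nuclear receptor coactivator gene, at 52926 and 53733 bp.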
